A study of Mus musculus with 6 samples.

Results

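The C/EBP factors, PU.1 and 4 further regulators of myeloid cells were followed in mouse blood progenitors with and without forced EVI1 expression. The set was chosen by function, as transcription factors that steer cells to granulocytes and monocytes, and held Cebpa, Cebpb, Cebpd, Cebpg, Spi1 (PU.1), Gfi1, Maf, Mitf and Zbtb16 (PLZF). All 9 of the 18192 genes measured on the array were found, with 21 of its 45037 probe sets, where a probe set is a group of probes read as 1 value. Each gene stands for its lead probe set, the one with the highest mean over the 6 arrays among probe sets annotated to that gene alone. Lineage-negative (Lin-) marrow progenitors of C57BL/6J background, which carry the Rosa26rtTA transactivator, were cultured with 4 cytokines: SCF, Flt3 ligand and IL-11 at 50 ng/ml each, and IL-3 at 20 ng/ml. The EGFP-positive group (3 arrays) was transduced with pRRL.TET.EVI1.IRES.EGFP, a lentiviral vector from which doxycycline induces EVI1 and EGFP on 1 transcript, and was sorted for EGFP. The EGFP-negative group (3 arrays) is called untransduced in its labels, whereas the design text describes a sort of negative or low cells from the transduced culture. By the design text, cells received doxycycline at 1 µg/ml on the day following transduction, for 20 hours up to the sort. Neither group carried a vector without EVI1, so the effects of EVI1, of transduction and of the sort cannot be told apart. The age and sex of the mice are not given in the sources used here. Whether the replicates are separate cultures or animals is not stated. The p-values therefore reflect only how these samples vary, and that variation may be technical.

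EVI1 is a zinc finger regulator of blood stem cells and the product of the Mecom locus. C/EBP proteins bind DNA as leucine zipper dimers: C/EBP alpha commits progenitors to the granulocyte and monocyte path, C/EBP beta serves emergency granulopoiesis, C/EBP delta is an inducible member of inflammation and growth arrest, and C/EBP gamma is a short member that lacks an activation domain. PU.1 is an ETS factor whose dose matters in the choice between myeloid, lymphoid and erythroid cells. GFI1 is a repressor needed for neutrophils, MITF drives mast cells, MAF acts in macrophages and lymphocytes, and PLZF is a repressor of progenitors and innate-like lymphocytes.

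Expression is given as log2 values, in which a difference of 1 is a 2-fold change, and errors are SD over 3 arrays. Array medians lay between 5.11 and 5.14, and Pearson's r over probe sets was 0.995 within the EGFP-negative group, 0.989 within the EGFP-positive group and at most 0.969 across them. The excess of 3' over 5' signal, a sign of RNA quality or amplification, was 0.80 ± 0.05 (n = 3) for Actb in the EGFP-negative group and 1.00 ± 0.03 in the other, a shift that moved with the groups; its part in the results was not tested. Mecom itself read 8.26 ± 0.09 (n = 3) and 7.97 ± 0.20 and did not pass the test (limma, adjusted p = 0.129). Whether its probe set can see the vector's EVI1 is not known here, so it does not check the labels. The highest signal of the bacterial control probe sets, 3.61, is used below as the ceiling of background.

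Of the 9 regulators 6 passed the test, 3 higher (Cebpd, Zbtb16 and Spi1) and 3 lower (Gfi1, Mitf and Maf) in EGFP-positive cells, while Cebpa, Cebpb and Cebpg did not (limma, Benjamini-Hochberg adjusted p under 0.05 over all genes). Of all genes 33.2% passed, 16.0% higher and 17.2% lower. The 2 groups of arrays did not overlap for the same 6 regulators, against 48.2% of all genes. All 9 lead probe sets lay above the background ceiling on all 6 arrays, and of the 13428 genes with a group mean above it 43.3% passed. Differences ran from -1.10 for Gfi1 to 1.29 for Cebpd, with a median of 0.12 against 0.02 over all genes. Cebpd and Gfi1 changed more than 2-fold, as did 12.2% of all genes. Leaving out EGFP-negative replicate 1 or 3 reduced the regulators that passed as lower from 3 to 1, Mitf, while the 3 that rose passed whichever array was left out.

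**Figure D1:**
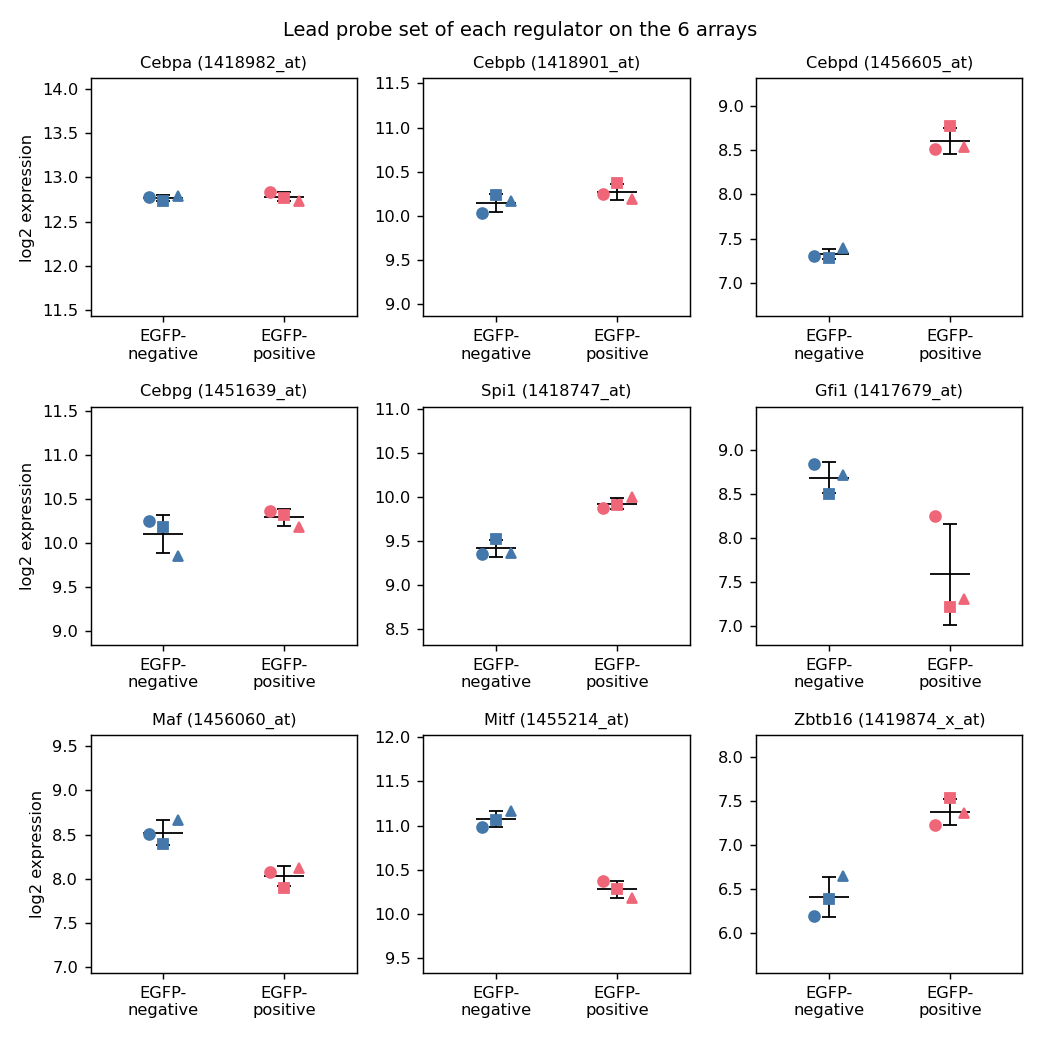
Log2 expression of the lead probe set of each regulator on the 6 arrays, with replicates 1, 2 and 3 as circle, square and triangle, the mean as a bar and the SD (n = 3) as whiskers; every panel spans the same log2 range. Cebpd moved furthest up (7.32 to 8.61), Cebpa stayed between 12.73 and 12.84, and in Gfi1 EGFP-positive replicate 1 (8.25) lies between the EGFP-negative arrays and the other EGFP-positive arrays.

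Each sorted fraction was measured whole, so fewer cells of a type and less RNA per cell cannot be told apart. Marker lists of several cell types differed between the fractions. Neutrophil markers were lower for 7 of 7 measured genes, and the log2 of their summed linear signal ranged from 15.19 to 15.29 and from 14.65 to 14.67 in the EGFP-negative and EGFP-positive group. Mast cell and basophil markers were lower for 6 of 7, from 13.66 to 13.70 down to 11.64 to 11.76, and eosinophil markers for 4 of 4, from 10.64 to 10.82 down to 7.64 to 8.41. Of 8 monocyte and macrophage markers 6 fell and 2 rose (12.37 to 12.41 against 12.34 to 12.38), and the defining Csf1r fell by 1.37 but stayed at 9.05, far above background. Of 5 erythroid markers 4 rose and 1 fell (7.44 to 7.60 against 9.81 to 10.07), and of 5 megakaryocyte markers 3 rose (10.62 to 10.74 against 11.78 to 11.95). Dendritic cell markers fell for 4 of 7 (12.03 to 12.13 against 11.09 to 11.18), with Xcr1 under the ceiling in both groups. Of 6 B cell markers 1 rose and 1 fell (11.12 to 11.20 against 10.01 to 10.28), with Pax5 and Ebf1 under the ceiling, and of 5 T and NK cell markers 2 fell (6.76 to 7.002 against 5.64 to 6.00), with Cd3g and Ncr1 under it. Stromal markers rose for 1 and fell for 1 of 6 (8.71 to 8.85 against 8.04 to 8.23), with Lum, Col3a1 and Cxcl12 under the ceiling, and endothelial markers rose for 3 and fell for 1 of 5 (9.97 to 10.24 against 10.001 to 10.12), with Emcn under it. The pan-leukocyte gene Ptprc did not pass (10.74 and 10.84), whereas the progenitor genes Cd34, Cd48, Kit and Flt3 fell by 2.75, 1.33, 0.98 and 0.82, all remaining above background. Of the depleted lineage markers, Cd3e and Itgam fell, and Cd4 and Cd8a lay near background (4.13 and 3.75 in EGFP-negative arrays). The part of these shifts in the results below was not tested.

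**Figure D2:**
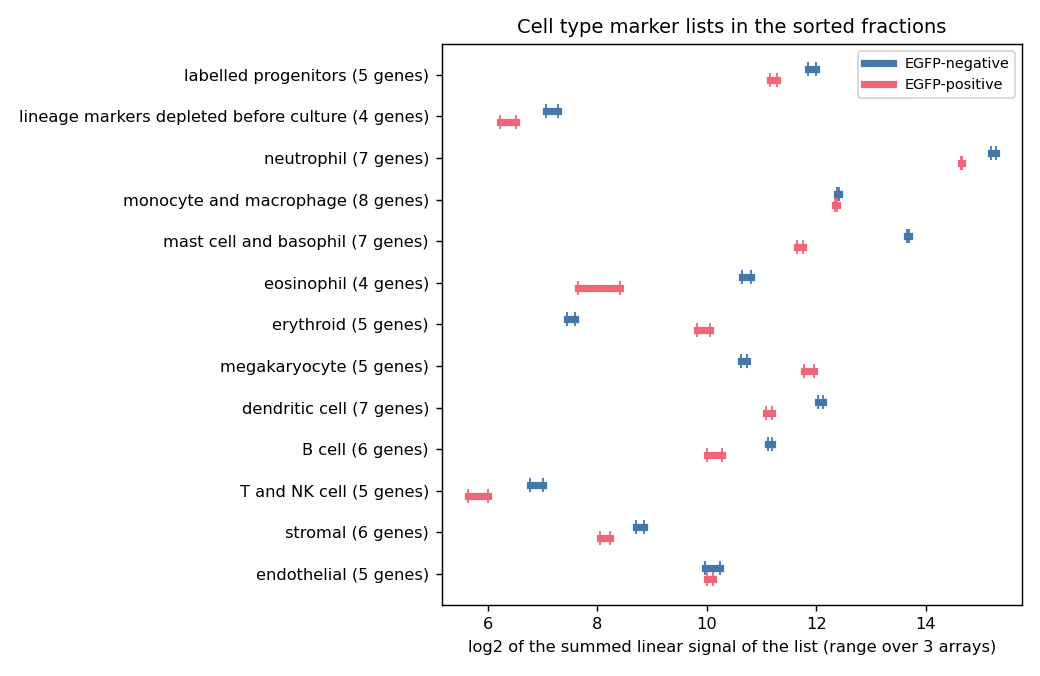
Range over 3 arrays of the log2 summed linear signal of 13 marker lists in EGFP-negative (blue) and EGFP-positive (red) cells; a list's position follows its brightest probe sets, so lists are compared between groups and not with each other. Neutrophil, mast cell and eosinophil signal was lower and erythroid and megakaryocyte signal higher in EGFP-positive cells.

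Cebpa, the gene of the factor that commits progenitors to granulocytes, did not pass the test, and its arrays spanned a narrow range. EGFP-negative arrays read 12.78, 12.73 and 12.79, and EGFP-positive arrays 12.84, 12.77 and 12.73. The ranges of the groups overlap. The difference was 0.02 (SE 0.08, 95% confidence interval -0.17 to 0.20; limma, adjusted p = 0.902).

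Cebpb and Cebpg likewise did not pass. EGFP-negative arrays read 10.03, 10.24 and 10.16 for Cebpb, EGFP-positive ones 10.24, 10.37 and 10.19, and the difference was 0.12 (SE 0.10, interval -0.11 to 0.35; limma, adjusted p = 0.384). Its second probe set, 1427844_a_at, gave -0.05 (interval -0.36 to 0.27). Cebpg, which lies on chromosome 7 with Cebpa, read 10.25, 10.18 and 9.85 against 10.36, 10.32 and 10.18, a difference of 0.19 (SE 0.13, interval -0.12 to 0.51; limma, adjusted p = 0.318). Its further probe sets gave -0.08 and 0.13, and none of its 3 passed.

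Cebpd, the inducible member, rose 2.44-fold. EGFP-negative arrays read 7.30, 7.28 and 7.39 and EGFP-positive arrays 8.51, 8.78 and 8.54, so that every EGFP-positive array lay more than 1 log2 unit above every EGFP-negative one. The difference was 1.29 (SE 0.10, interval 1.04 to 1.53; limma, adjusted p = 0.00027), and the other probe set, 1423233_at, gave 1.25 (limma, adjusted p = 0.000536 over probe sets). This change was larger in size than that of 91.4% of all genes. Its interval does not overlap those of Cebpa, Cebpb and Cebpg, although the differences between family members were not tested as such.

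Other genes of the C/EBP network moved both ways. Of 6 measured relatives and regulators 3 rose and 2 fell, with a median of 0.16. Both leucine zipper partners fell, Atf4, a stress factor that can pair with C/EBP gamma, by 0.84 (11.37 ± 0.03 to 10.53 ± 0.05, n = 3) and Ddit3 (CHOP), an inhibitory C/EBP relative, by 0.88 (limma, adjusted p = 0.000452 and 0.00275). Represented by its most variable probe set, Ddit3 did not pass (-1.09; limma, adjusted p = 0.0535). The Tribbles genes Trib1, Trib2 and Trib3 passed as higher by 0.49, 0.52 and 0.43; TRIB1 and TRIB2 mark C/EBP alpha for degradation, and their partner Cop1 did not pass (-0.12). The Tribbles calls were fragile. None of the 3 passed without EGFP-negative replicate 1 (limma, adjusted p = 0.113, 0.107 and 0.0935) or without EGFP-negative replicate 2 (0.0637, 0.0995 and 0.0951). Trib1 was lost without 3 further arrays, EGFP-negative replicate 3 and EGFP-positive replicates 1 and 3 (0.0936, 0.0745 and 0.0783). Trib2 was lost without EGFP-positive replicate 1 or 2 (0.0781 and 0.0838) and turned to -0.07 with probe sets that are specific by their suffix. Trib3 was lost without EGFP-positive replicate 2 (0.0566). With the mean of a gene's probe sets Trib1 (0.39; limma, adjusted p = 0.204) and Trib2 (0.16, adjusted p = 0.374) did not pass. Nor did Trib1 with its most variable probe set (0.29; limma, adjusted p = 0.574).

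Most granule genes that C/EBP factors activate were lower in EGFP-positive cells. Of 15 genes 12 fell and 3 rose, with a median of -2.50 against 0.02 over all genes. The smallest p among the falls were those of Ctsg, the serine protease cathepsin G (12.94 ± 0.04 to 9.29 ± 0.11, n = 3), Mpo, myeloperoxidase (12.18 ± 0.01 to 8.49 ± 0.22), and Elane, the elastase of primary granules, at 12.5-fold, 12.9-fold and 7.63-fold lower. Of the other falls, Camp, an antimicrobial peptide of secondary granules, went from 8.90 ± 0.13 to 4.86 ± 0.32 (n = 3), 16.5-fold lower, and Ms4a3, a marker of granulocyte and monocyte progenitors, from 11.58 ± 0.08 to 8.30 ± 0.32, 9.70-fold lower. Prtn3, proteinase 3, was 1.69-fold lower. The smallest fall was that of Chil3 (-0.35). The lysozyme genes Lyz1 and Lyz2 were higher by 0.46 and 0.40, and these close paralogues may share signal. Lyz1 was lost without EGFP-negative replicate 2 (limma, adjusted p = 0.0501) and with probe sets that are specific by their suffix (0.05, adjusted p = 0.865). The third rise was Mmp9, a gelatinase, by 6.09 log2 units from 4.62 ± 0.61 to 10.71 ± 0.12 (n = 3). At 68.2-fold higher it was the largest change in the list. These falls ran together with the neutrophil markers given above, with which the list shares Camp, Ltf, Ngp, Mmp8 and Cd177.

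Spi1, the gene of PU.1, rose 1.42-fold. EGFP-negative arrays read 9.36, 9.53 and 9.37 and EGFP-positive arrays 9.87, 9.91 and 9.999. The groups were apart, with EGFP-negative replicate 2 the nearest to the EGFP-positive arrays. The difference was 0.51 (SE 0.09, interval 0.29 to 0.72; limma, adjusted p = 0.00631), and the gene has 1 probe set. In size it exceeded the difference of 70.3% of all genes.

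The nearest relatives of PU.1 rose as well. Spib, an ETS factor of B cells and plasmacytoid dendritic cells that binds the same sites, went from 9.61 ± 0.08 to 12.18 ± 0.05 (n = 3), 5.94-fold higher, and Spic, a factor of iron-recycling macrophages, from 5.30 ± 0.25 to 8.96 ± 0.22, 12.7-fold higher (limma, adjusted p = 2.23e-05 and 4.62e-05). Spic has no probe set that is specific by its suffix, so its rise could not be tested with such probe sets alone. Whether the rises of Spib and Spic exceed that of Spi1 was not tested. Of 9 measured relatives and partners 3 rose and 5 fell, with a median of -0.63. The third rise was Gata1, the erythroid factor that antagonises PU.1 (1.38). The partners that bind DNA with PU.1, Irf4 and Irf8, fell by 1.28 and 1.30, the coactivator Jun fell by 1.18, and Runx1 and its subunit Cbfb each fell by 0.63. Gata2 was -0.15 and did not pass, but passed as lower with eBayes trend (limma, adjusted p = 0.00436).

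Receptor genes that PU.1 and C/EBP factors activate were mostly lower. Of 10 receptor genes 6 fell and 2 rose, with a median of -1.07. Itgb2, the beta chain of the leukocyte integrins, fell by 2.39 (10.36 ± 0.05 to 7.98 ± 0.15, n = 3), Csf2rb, the shared receptor chain for interleukin-3 and GM-CSF, fell by 1.502, Csf1r, the M-CSF receptor, by 1.37, and Il6ra, a C/EBP alpha target, by 1.40 (limma, adjusted p = 3.68e-05, 6.94e-05, 0.000244 and 0.00155). The rises were Csf3r, the G-CSF receptor (0.66), and Fcgr1, the high-affinity IgG receptor (0.85, at least 1.76-fold). The 2 rises were fragile. Neither passed without EGFP-negative replicate 2 (limma, adjusted p = 0.0522 for Csf3r and 0.0940 for Fcgr1), EGFP-negative replicate 3 (0.0673 and 0.0992) or EGFP-positive replicate 3 (0.0562 and 0.0868). Csf3r was also lost without EGFP-negative replicate 1 (0.0669) or EGFP-positive replicate 2 (0.0526) and Fcgr1 without EGFP-positive replicate 1 (0.0888). Of 10 further PU.1 target genes 4 fell and 3 rose, with a median of -0.02. The oxidase subunit Ncf4 fell by 1.91, the kinase Btk by 0.93 and the oxidase core Cybb by 0.41, whereas the lysosomal genes Cd68 and Ctss rose by 0.80 and 0.42. The oxidase subunit Ncf1 passed as higher (0.44), but only EGFP-positive replicate 2 could be left out without loss of the call; leaving out EGFP-negative replicate 1, 2 or 3 gave an adjusted p of 0.0843, 0.0807 and 0.0586, and EGFP-positive replicate 1 or 3 gave 0.0667 and 0.0655. Pirb, an inhibitory receptor, passed as lower (-0.35) but was lost without EGFP-negative replicate 1 or 3 (adjusted p = 0.0820 and 0.0746) or EGFP-positive replicate 1 or 2 (0.0593 and 0.0560). With each gene's most variable probe set Cybb (0.145) and Pirb (0.0567) were lost, which left 2 falls. Tyrobp and Fcer1g, the signalling adaptors of myeloid receptors, did not pass (0.10 and -0.14). Fcer1g passed as lower with eBayes trend (limma, adjusted p = 0.0179).

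**Figure D3:**
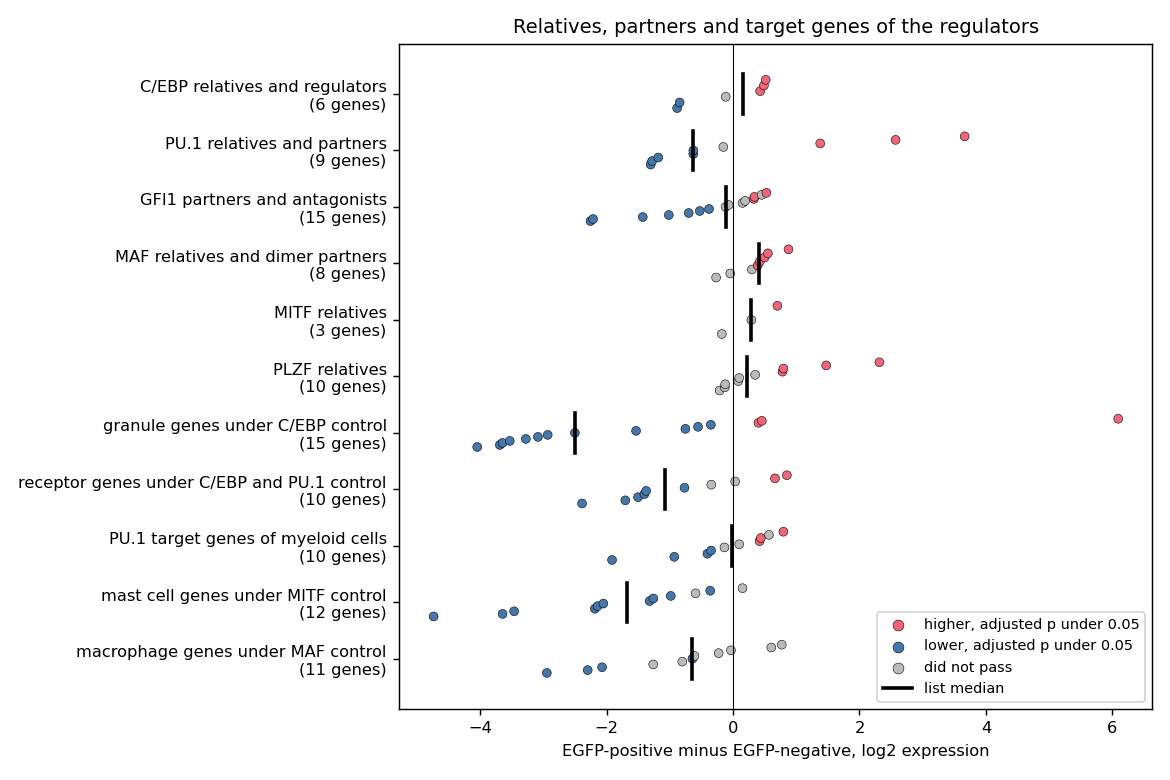
Difference between EGFP-positive and EGFP-negative arrays (log2) for each gene of 11 lists of relatives, partners and target genes, coloured by call, with the list median as a bar. Granule genes (median -2.50), mast cell genes (-1.68) and receptor genes (-1.07) lie mostly to the left, while MAF relatives (0.41) and PLZF relatives (0.22) lie mostly to the right or near 0.

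Gfi1, the repressor gene needed for neutrophils, was 2.14-fold lower. EGFP-negative arrays read 8.84, 8.50 and 8.72 and EGFP-positive arrays 8.25, 7.21 and 7.31. EGFP-positive replicate 1 stood apart from the other EGFP-positive arrays and close to the EGFP-negative ones. The difference was -1.10 (SE 0.28, interval -1.79 to -0.41; limma, adjusted p = 0.0282). The call was lost without any 1 of 5 arrays: EGFP-negative replicate 1, 2 or 3 (adjusted p = 0.0905, 0.0581 and 0.0865) and EGFP-positive replicate 2 or 3 (0.0740 and 0.0786). Without EGFP-positive replicate 1 the difference was -1.43 (adjusted p = 0.00151). The gene has 1 probe set, and the neutrophil markers fell beside it.

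Among 15 partners and antagonists of GFI1, 7 fell and 3 rose, with a median of -0.12. The paralogue Gfi1b, a repressor that acts in the erythroid and megakaryocyte lines, fell by 1.02, from 7.83 ± 0.08 to 6.82 ± 0.21 (n = 3; limma, adjusted p = 0.00161). Genes of the monocyte side, which GFI1 represses, were lower: Egr2 fell by 2.21, Egr1 by 0.70, and Klf4 by 1.43, while Id2, an inhibitor of basic helix-loop-helix factors, fell by 2.25. Hoxa9 (-0.07) and Csf1 (-0.12) did not pass. Of the corepressors, the demethylase gene Kdm1a and the deacetylase gene Hdac2 fell by 0.38 and 0.53, Rcor1 was higher by 0.34 and Hdac1 did not pass (0.19). Hdac2 was lost without EGFP-negative replicate 2 or 3 (limma, adjusted p = 0.0761 and 0.0752). Nab2, which restrains EGR factors, rose by 0.53, and Id1 passed as higher (0.33). Without EGFP-negative replicate 1 or 3, or EGFP-positive replicate 2, neither Rcor1 (limma, adjusted p = 0.0640, 0.0744 and 0.0586) nor Id1 (0.121, 0.112 and 0.0716) passed, which left 1 rise in the list, Nab2. Rcor1 was also lost without EGFP-negative replicate 2 (0.0632), Id1 without EGFP-positive replicate 3 (0.0764), and both without EGFP-positive replicate 1 (0.0616 and 0.0902).

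Mitf, the gene of the mast cell factor, fell 1.73-fold. EGFP-negative arrays read 10.98, 11.06 and 11.17 and EGFP-positive arrays 10.37, 10.28 and 10.18. No EGFP-positive array came within 0.5 log2 units of an EGFP-negative one. The difference was -0.79 (SE 0.09, interval -1.02 to -0.57; limma, adjusted p = 0.00126). The second probe set, 1422025_at, read 7.06 and 6.78 on average and did not pass (-0.28; limma, adjusted p = 0.257 over probe sets). Of the relatives that share its binding sites, Tfe3 rose by 0.70, from 11.70 ± 0.04 to 12.40 ± 0.01 (n = 3; limma, adjusted p = 0.000804), while Tfec (-0.18) and Tfeb (0.29) did not pass. Tfec passed with eBayes trend (adjusted p = 0.00234) or brighter genes alone (0.0358), and Tfeb without EGFP-negative replicate 3 (0.41, adjusted p = 0.0495).

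Mast cell genes under MITF control were lower too. Of 12 genes 10 fell and 0 rose (limma; at an unadjusted p under 0.05 also 0 rose), with a median of -1.68. Cpa3, a carboxypeptidase of mast cell granules, was 11.0-fold lower (10.65 ± 0.02 to 7.18 ± 0.11, n = 3) and Hdc, the histamine-forming enzyme, 12.5-fold lower. Hdc has no probe set that is specific by its suffix. Gzmb, a protease of mast cells and killer cells, fell by 2.19 (11.77 ± 0.02 to 9.58 ± 0.20, n = 3), Ms4a2 and Fcer1a, chains of the high-affinity IgE receptor, by 2.14 and 1.32, Cma1, a mast cell chymase, fell by 2.05, and Kit, the stem cell factor receptor, by 0.98. Itga4, an integrin chain, passed as lower by its lead probe set (-0.36), but read 0.01 with the mean of its probe sets (limma, adjusted p = 0.944) and 0.28 with the most variable one (0.351). Mcpt4, counted among the falls, lay near or under the ceiling (3.67 and 2.41, at least 1.04-fold lower). Tpsb2 was -0.59 and did not pass, and Tpsab1 lay under the ceiling in both groups. Tpsb2 passed as lower with further quantile normalization (limma, adjusted p = 0.0391), genes above the ceiling alone (0.0412) or the mean of its probe sets (0.0379). Mast cell and basophil markers, with which this list shares Cpa3, Hdc, Ms4a2, Fcer1a, Cma1 and Tpsb2, fell beside it.

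RefSeq promoter windows, here the 250 bases before an annotated start in GRCm38.p6, were at hand for 5 of the 9 regulators (8 windows, since Gfi1 has 2 starts and Mitf 3). Cebpd, Spi1, Zbtb16 and Maf had no window, so no regulator that rose is covered. The first windows of Gfi1 and Mitf, which fell, and that of Cebpa, which did not pass, are shown 5' to 3' on the gene's strand. Capitals mark every match, on either strand, to 5 motifs: AAGATA and GAAGATGAG for the first and second zinc finger domains of EVI1, GAGGAA for PU.1, TTGCNNAA for a C/EBP dimer and AAATCA for GFI1. Within these windows no matches of different motifs overlap.
Gfi1: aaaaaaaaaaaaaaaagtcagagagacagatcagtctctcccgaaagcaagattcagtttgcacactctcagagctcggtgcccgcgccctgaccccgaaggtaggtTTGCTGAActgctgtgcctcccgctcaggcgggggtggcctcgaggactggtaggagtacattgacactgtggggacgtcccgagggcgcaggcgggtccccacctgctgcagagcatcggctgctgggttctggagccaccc
Mitf: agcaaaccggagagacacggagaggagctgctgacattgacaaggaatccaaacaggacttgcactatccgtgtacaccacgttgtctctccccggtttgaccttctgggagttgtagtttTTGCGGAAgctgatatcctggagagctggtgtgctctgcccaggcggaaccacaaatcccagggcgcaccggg
Cebpa: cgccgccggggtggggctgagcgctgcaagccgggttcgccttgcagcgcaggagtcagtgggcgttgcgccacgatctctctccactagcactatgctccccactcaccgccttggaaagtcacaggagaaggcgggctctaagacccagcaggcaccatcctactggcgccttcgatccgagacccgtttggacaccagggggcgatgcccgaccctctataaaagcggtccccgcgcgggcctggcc
The Mitf sequence stops 56 bases short of that start, where another annotated transcript begins. The Gfi1 sequence is chr5:107725806-107726055 on the minus strand, the Mitf sequence chr6:97806808-97807001 on the plus strand and the Cebpa sequence chr7:35119043-35119292 on the plus strand. The first windows of Gfi1 and Mitf each held 1 C/EBP-type match, TTGCTGAA at 143 to 136 bases and TTGCGGAA at 129 to 122 bases before the start. The other 6 windows, among them those of Cebpa, Cebpb and Cebpg, held no match to any of the 5 motifs. Of 32851 windows of this length in RefSeq 9.56% held the C/EBP letters, 8.77% AAGATA, 0.347% GAAGATGAG, 23.3% GAGGAA and 12.4% AAATCA. These matches describe letters and not binding sites, and the array does not tell which start was used.

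Maf, the gene of a large MAF factor of macrophages and T cells, fell 1.41-fold. EGFP-negative arrays read 8.51, 8.39 and 8.66 and EGFP-positive arrays 8.07, 7.90 and 8.12. No EGFP-positive array reached the lowest EGFP-negative one. The difference was -0.49 (SE 0.11, interval -0.76 to -0.23; limma, adjusted p = 0.0157), and the call was lost without EGFP-negative replicate 1 (adjusted p = 0.0535) or 3 (0.0506). All 6 probe sets of Maf pointed down. Differences of those above the background ceiling ran from -0.76 to -0.14, and 2 passed. Of these, 1437473_at gave -0.76 (limma, adjusted p = 0.00526 over probe sets). The 2 dimmest, 1435828_at and 1447849_s_at, lay under the background ceiling on every array, so their differences carry no fold.

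Several genes of small MAF proteins and of their CNC partners rose. Of 8 relatives and dimer partners 5 rose and 0 fell (limma; at an unadjusted p under 0.05 also 0 fell), with a median of 0.41. Nfe2l2 (NRF2), the activator of antioxidant genes, rose by 0.88, from 9.64 ± 0.01 to 10.52 ± 0.06 (n = 3), and Nfe2, a factor of erythroid and platelet genes, by 0.55. The small MAF genes Mafg and Mafk rose by 0.50 and 0.39, and the repressor gene Bach1 by 0.43. Mafk did not pass when EGFP-negative replicate 1, 2 or 3 was left out (limma, adjusted p = 0.0540, 0.0938 and 0.0843), nor without EGFP-positive replicate 1 or 2 (0.0578 and 0.0604). Maff (0.30) and Bach2 (-0.04) did not pass, and Nrl lay under the ceiling. Maff passed as higher with brighter genes alone (limma, adjusted p = 0.0212) or genes above the ceiling alone (0.0379). It also passed with arrays shifted to the same median (0.0478) or without EGFP-positive replicate 1 (0.0449). Erythroid and megakaryocyte markers rose beside the genes of this list that rose. Of 11 macrophage genes under MAF control 4 fell and 0 rose (limma), with a median of -0.64. They were Adgre1, a surface receptor that marks macrophages (-2.07), Il10, a cytokine gene driven by MAF (at least 4.19-fold lower), Msr1, a scavenger receptor (at least 4.89-fold lower), and the complement gene C1qa, which lay near the ceiling (3.75 and 3.11). C1qa did not pass when EGFP-negative replicate 1 or 2 was left out (limma, adjusted p = 0.0885 and 0.106), nor without EGFP-positive replicate 1, 2 or 3 (0.0605, 0.0955 and 0.109). Mrc1, the mannose receptor, stayed bright and did not pass (11.52 and 11.30). At an unadjusted p under 0.05 (limma) C1qb (-1.26), C1qc (-0.61) and Mrc1 were also lower. Cd5l was higher at that threshold, but it lay under the ceiling in both groups. With its most variable probe set C1qb passed as lower (-2.33; limma, adjusted p = 0.00609). With brighter genes alone Il10, Msr1 and C1qa were not tested, and Adgre1 and Mrc1 (-0.23; limma, adjusted p = 0.0273) passed as lower.

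Zbtb16, the gene of PLZF, rose 1.95-fold. EGFP-negative arrays read 6.20, 6.39 and 6.65 and EGFP-positive arrays 7.23, 7.53 and 7.36. Every EGFP-positive array lay above every EGFP-negative one. The difference was 0.96 (SE 0.14, interval 0.61 to 1.31; limma, adjusted p = 0.00334). The lead probe set, 1419874_x_at, is of a type that can bind related sequences, but the specific probe set 1439163_at rose by 1.24 as well, from 4.50 ± 0.30 to 5.74 ± 0.09 (n = 3; limma, adjusted p = 0.00268 over probe sets). The third, 1427638_at, lay under the background ceiling on all 6 arrays.

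Of 10 zinc finger relatives of PLZF 4 rose and 0 fell (limma; at an unadjusted p under 0.05 also 0 fell), with a median of 0.22. Bcl6, a repressor of germinal centre B cells, rose 4.97-fold, from 9.31 ± 0.14 to 11.62 ± 0.08 (n = 3), Zbtb20 2.78-fold, Zbtb4 1.72-fold and Zbtb7b, a factor of helper T cells, 1.74-fold (limma, adjusted p = 4.03e-05, 0.000268, 0.000717 and 0.00298). Zbtb7a, a factor of erythroid and B cells, was -0.13 and did not pass. Without EGFP-positive replicate 2 Zbtb1 passed as lower (-0.32; limma, adjusted p = 0.0411). Patz1 (0.35) did not pass, but passed as higher with brighter genes alone (limma, adjusted p = 0.0220) or genes above the ceiling alone (0.0374). It also passed with arrays shifted to the same median (0.0431) or eBayes trend (0.0378).

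**Figure D4:**
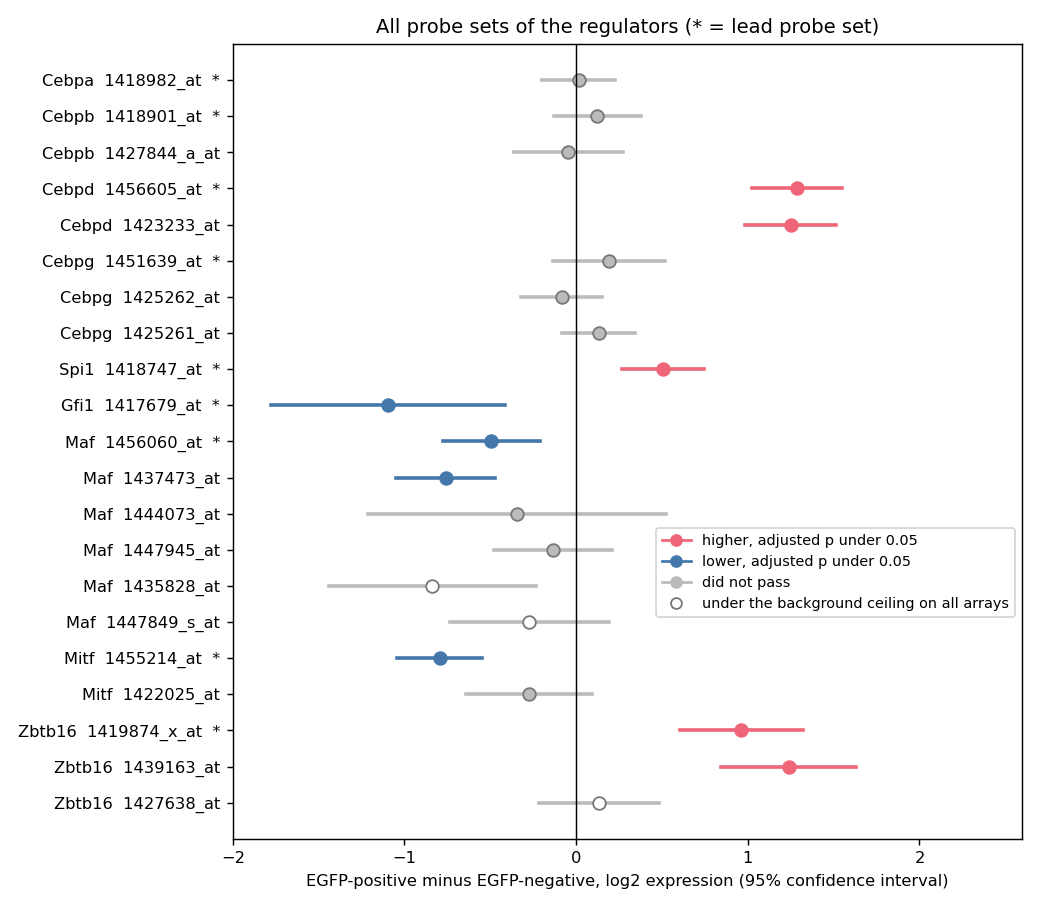
Difference between EGFP-positive and EGFP-negative arrays (log2) with its 95% confidence interval from limma for all 21 probe sets of the 9 regulators; an asterisk marks the lead probe set and open circles lie under the background ceiling on all arrays. Of 21 probe sets 5 passed as higher and 4 as lower, and no gene had probe sets that passed in opposite directions.

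Over the 21 probe sets of the regulators 5 passed as higher and 4 as lower, where 24.1% of all probe sets passed, 11.6% higher and 12.6% lower, and 3 lay under the background ceiling throughout. The count of lower probe sets fell from 4 to 2 without EGFP-negative replicate 1, EGFP-negative replicate 3 or EGFP-positive replicate 2. The genes whose 6 values, centred on their own mean, lay nearest to those of Cebpd were Rarg, a retinoic acid receptor gene (root mean square distance 0.04 log2 units), L1cam (0.06) and Tinagl1 (0.06), which rose by 1.30, 1.24 and 1.36. For Gfi1 they were Sh2d5 (0.12), Ncapd3, a condensin subunit gene (0.14), and the chemokine gene Ccl5 (0.15), which fell by 1.14, 1.15 and 1.33. Likeness over 6 arrays in 2 groups mostly reflects the size of the difference between the groups.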

How the data were processed

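RNA from 6 samples of sorted mouse progenitors was amplified from the 3' end, per the labels' protocols, and each sample was read on 1 Affymetrix array. The authors deposited log2 values per probe set, made by RMA per the submitters' processing notes; RMA corrects background, quantile-normalizes arrays and summarises probes, so a change in total RNA per cell cannot be read. Its version is not stated in these sources, and scanner files were not used here. Of 45037 probe sets that are no control, 34945 have 1 gene in GEO's platform annotation, 932 several and 9160 none; Entrez identifiers found 34741 in RefSeq GRCm38.p6 and 0 symbols changed. Some listed genes were not analysed here.

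A linear model with no covariate (limma 3.58.1, R 4.3.3, lmFit then eBayes) was applied to them, EGFP-positive minus EGFP-negative, two-sided, with Benjamini-Hochberg adjustment over 18192 genes, or 45037 probe sets where stated. Groups come from sample titles. With 3 arrays per group, precision is limited by their number. The fit was tested on simulated data. The background ceiling of 3.61 comes from 27 bacterial control probe sets; values of the dimmer group under it were raised to it, and the fold is then a lower bound. No list was tested as a set. From each list up to 3 rises and 3 falls with the smallest p were named, and other members named were chosen after their values were seen. The regulators, lists and alternatives were chosen with earlier results of these data known. Motifs were chosen with the results known. Alternatives were the replicate block, further scaling, filters on dim genes, eBayes options, array weights, other probe set choices and leaving out each array.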

Additional observations from a re-analysis of the deposited data

How the results depend on the processing

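Cebpd, Spi1, Zbtb16 and Mitf kept their direction and call under all 17 alternatives, with differences of 1.20 to 1.34, 0.47 to 0.56, 0.78 to 1.24 and -0.84 to -0.53. Gfi1 ranged from -1.43 to -0.91 (limma, adjusted p 0.00151 to 0.0905), and Gfi1 and Maf lost their call under some settings that left out 1 array. Maf ranged from -0.56 to -0.42 when each array was left out in turn (up to 0.0535); the most variable probe set of Maf (-0.84) lies under the background ceiling and bears on neither size nor call. Leaving out each array in turn gave 3 regulators higher and 1 to 3 lower, and 4 to 5 probe sets of the regulators higher and 2 to 4 lower; over all genes it gave 2180 to 2705 higher and 2252 to 2959 lower. The differences nearest to 0 changed sign without a call: Cebpa ranged from -0.0129 (EGFP-positive replicate 1 left out) to 0.0395 (EGFP-positive replicate 3 left out) and was -0.0021 without EGFP-negative replicate 2, and Cebpb was -0.0458 for its most variable probe set. Trib2 was -0.0737 with probe sets that are specific by their suffix, and Itga4 turned to 0.01 and 0.28 with other probe set choices. Deviations from the group means correlated at 0.01, -0.01 and 0.002 between arrays of the same replicate number. This cannot tell whether the samples were paired, since technical variation need not be shared. With the replicate number as a block, 3 regulators were higher and 3 lower, as without it. Then 5 probe sets of the regulators were higher and 5 lower, and 2361 genes were higher and 2539 lower. Among genes of the lists described, Trib1, Trib2, Trib3, Rcor1, Id1, Mafk, Chil3, Fcgr1, Ncf1, Pirb and Itga4 lost their call under the block, and Cd5l gained one. For the list genes that the naming rule picked, 767 differences under alternatives kept direction and call, 56 lost and 3 gained a call, and genes named beyond the rule are not in these counts.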
